A study of Saccharomyces cerevisiae with 12 samples.

Results

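The genes described here encode the cytoplasmic deadenylases of Saccharomyces cerevisiae, the enzymes that shorten the poly(A) tails of mRNAs. They were picked by gene name, as the subunits of 2 complexes and with earlier results of these data known, and number 10 of the 6352 genes measured: CCR4, POP2, CDC39, CDC36, NOT3, MOT2, NOT5 and CAF40, the 8 core genes of the Ccr4-Not complex, and PAN2 and PAN3, the 2 genes of the Pan2-Pan3 complex. All 10 were present in each of the 7 comparisons. RNA was sequenced from 12 libraries in 6 groups of 2. The groups were a strain deleted for SCD6 (Δscd6) after azide and untreated, a strain deleted for SBP1 (Δsbp1) after azide and untreated, and the parental wild type BY4741 after azide and untreated. BY4741 is a laboratory strain, both deletion strains are in its background, and the labels name no agent other than azide. Cultures were grown in rich glucose medium to an optical density of 0.4 to 0.5, and treated cultures then received 0.5% sodium azide for 30 minutes. Both deleted genes encode translation repressors of the RGG-motif family that can enter P bodies, cytoplasmic granules that hold mRNA decay factors and that azide brings on.

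Deadenylation is the first step of most mRNA decay in yeast. Pan2-Pan3, which binds the poly(A)-binding protein Pab1, trims new tails, and Ccr4-Not removes most of the rest, after which the mRNA is decapped and degraded from its start, or degraded from its end by the exosome. Cdc39, also called Not1, is the large scaffold on which Ccr4-Not is built. Ccr4 and Pop2 form the nuclease module, Cdc36 (Not2) with Not3 and Not5 form the NOT module, Mot2 (Not4) is a ubiquitin ligase, and Caf40 is a conserved subunit that binds mRNA-binding proteins in other species.

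The values were the authors' tables of 7 comparisons, which give for each gene the fold change with its raw and adjusted p-values, beside 1 mean normalised read count. The mean normalised count of the 10 genes, 617 to 1409 in the authors' deposited table, lay above the median of 589 over all genes. No values per library and no depth per library were used here, so group means were solved from the mean count and the fold changes, and they carry no SD. Precision was read from the standard error that a log2 fold change and its p-value imply, which was 0.20 to 0.32 for the 10 genes and 0.24 at the median of all genes. The words rose and fell are kept for an adjusted p under 0.05. The labels do not say that the libraries of a group came from separate cultures, so p-values measure only how far these libraries differ, possibly for technical reasons. In bulk RNA, fewer cells with an mRNA and less of it per cell cannot be told apart. Each deletion strain had little mRNA of its deleted gene: in the authors' deposited table SCD6 was at log2 -4.49 in azide and -6.28 untreated in Δscd6 against wild type, and SBP1 at -6.29 and -8.30 in Δsbp1 against wild type.

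Normalised counts per kilobase of gene differed widely between the subunits, with CAF40 or CDC36 at the top and the scaffold gene CDC39 at the bottom in all 6 groups. CDC36 (576 bases) and CAF40 (1122) are the shortest of the 10 genes and CDC39 (6327) the longest. A part of gene length in this order was not tested and cannot be told apart from mRNA level. CDC39 had 138 and 173 normalised counts per kilobase in Δscd6 cells with azide and untreated, 71.4 and 173 in Δsbp1 cells, and 98.9 and 244 in wild type cells. It ranked 10th of 10 in all 6 groups. CAF40 had 1246 and 1427 normalised counts per kilobase in Δscd6 cells with azide and untreated, 1044 and 1109 in Δsbp1 cells, and 1407 and 1152 in wild type cells. It ranked first in 5 groups and was at rank 3 in azide-treated Δsbp1 cells, where CDC36 led with 1281. In untreated wild type cells the order from high to low was CAF40, CDC36, POP2, NOT5, NOT3, CCR4, PAN3, PAN2, MOT2 and CDC39. Of the 9 pairs of neighbours in that order, 1 differed by more than its 95% range, NOT5 at 679 over NOT3 at 435 normalised counts per kilobase, and 8 did not. In azide-treated wild type cells 4 of the 9 neighbouring pairs differed by more than that range, among them the last, PAN2 at 197 over CDC39 at 98.9.

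**Figure D1:**
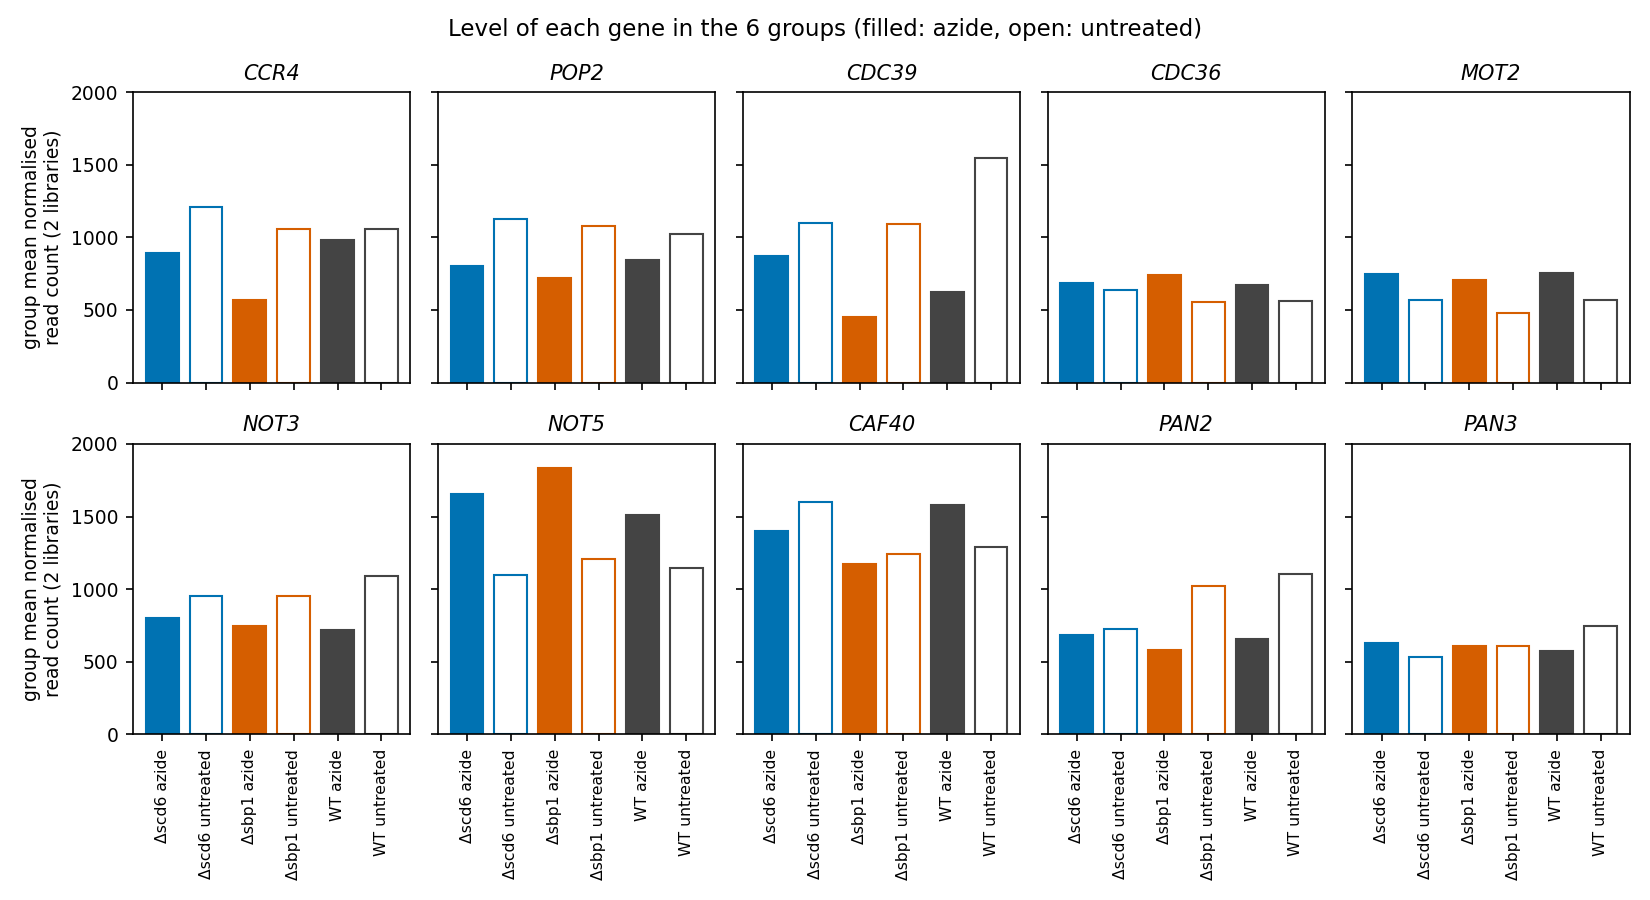
Group mean of the normalised read count (vertical axis, from 0) for each of the 10 genes in the 6 groups, filled bars for azide and open bars for untreated cells. The groups hold 2 libraries each and no error is drawn, because values per library were not used. CDC39 and PAN2 are lowest in azide-treated Δsbp1 cells and highest in untreated wild type cells, and NOT5 is higher with azide in every strain.

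With azide the deadenylase genes moved in different directions. The scaffold gene CDC39 and the nuclease gene PAN2 fell in Δsbp1 and wild type cells, CCR4 fell in Δsbp1 cells and NOT3 in wild type cells. NOT5 rose in Δscd6 and Δsbp1 cells and MOT2 rose in Δsbp1 cells. By the authors' adjusted p, 1 of the 10 rose and 0 fell in Δscd6 cells, where 42.5% of all genes passed (22.1% rose and 20.4% fell). At an unadjusted p under 0.05 the authors' test gave the same 1 rise and 0 falls there. In Δsbp1 cells 2 rose and 3 fell, against 54.9% of all genes passing (27.5% rose and 27.4% fell), and at an unadjusted p under 0.05 the authors' test gave 3 rises and 4 falls. In wild type cells 0 rose and 3 fell, against 42.0% of all genes passing (21.3% rose and 20.6% fell), and at an unadjusted p under 0.05 the authors' test gave 1 rise and 3 falls. All these percentages belong to the adjusted threshold. Shares of all genes at an unadjusted p under 0.05 are not given, here or below, so the unadjusted counts have no such comparison. The calls thus covered 10% of these genes in Δscd6, 50% in Δsbp1 and 30% in wild type, no more than the share of all genes in any strain. The median log2 change of the 10 genes was -0.14 in Δscd6, -0.22 in Δsbp1 and -0.19 in wild type, beside -0.02, -0.02 and -0.02 for all genes.

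**Figure D2:**
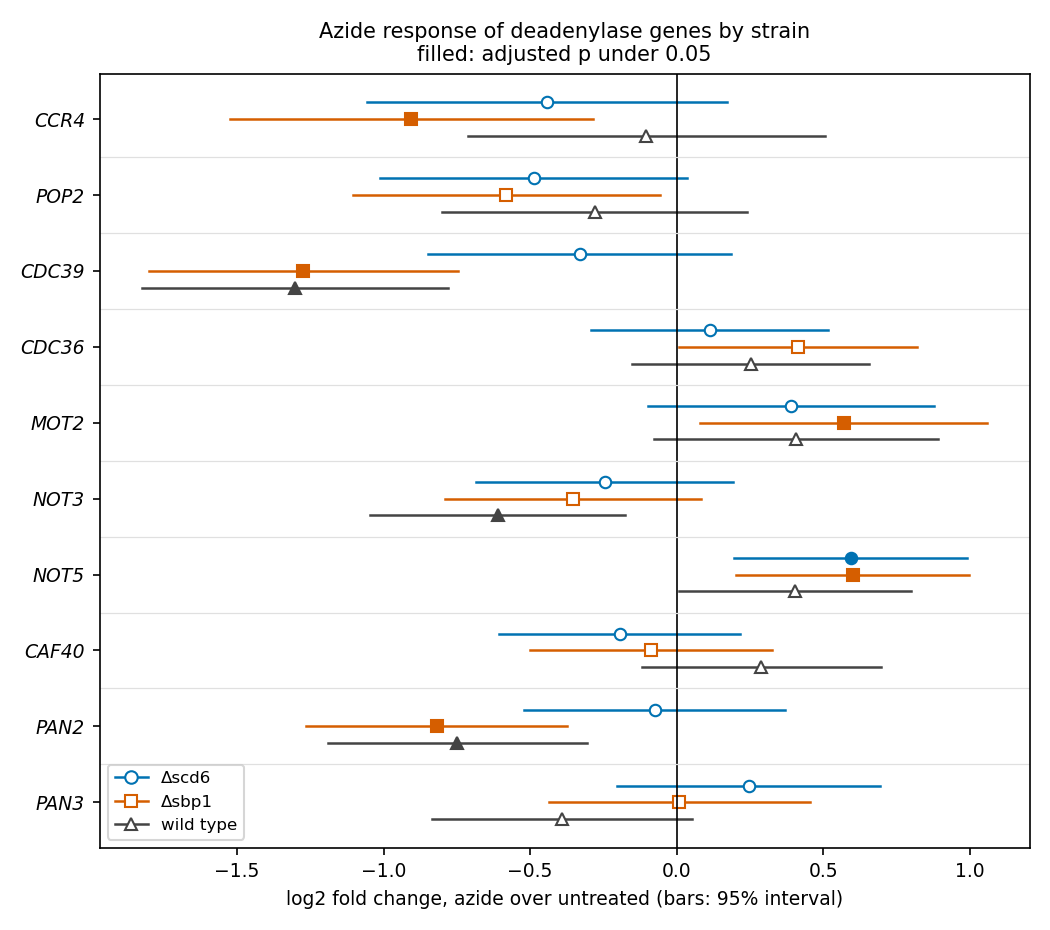
Log2 fold change of azide over untreated (horizontal axis) for the 10 genes in Δscd6, Δsbp1 and wild type, with 95% intervals from the implied standard error and filled symbols where the adjusted p is under 0.05. CDC39 and PAN2 lie left of 0 with filled symbols in Δsbp1 and wild type, and NOT5 lies right of 0 in all 3 strains, filled in Δscd6 and Δsbp1.

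CDC39 (YCR093W), the scaffold gene, had the largest change of the 10 genes in Δsbp1 and in wild type cells. Its group means were 871 with azide and 1095 untreated in Δscd6, 452 and 1092 in Δsbp1, and 626 and 1544 in wild type. Azide-treated cells were thus lower than untreated cells in each strain, and the gap was smallest in Δscd6. With all groups scaled to equal totals, CDC39 in Δscd6 was instead higher with azide, at 921 against 883 untreated. In the authors' deposited table it fell to 41.4% of the untreated level in Δsbp1 (log2 change -1.27, adjusted p = 9.85e-06) and to 40.6% in wild type (-1.30, adjusted p = 8.45e-06). In Δscd6 the authors' deposited table gave 79.5% (-0.33, adjusted p = 0.316), with a 95% interval of -0.85 to 0.19.

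NOT3 and NOT5 are related subunits of the NOT module. With azide NOT5 rose in Δscd6 and Δsbp1 and NOT3 fell in wild type, and no strain had both past the test. NOT5 (YPR072W), whose product contacts the ribosome, had group means of 1658 with azide and 1098 untreated in Δscd6, 1834 and 1210.2 in Δsbp1, and 1510 and 1143 in wild type. All 3 azide groups were above all 3 untreated groups. The authors' deposited table gave rises of 0.59 in Δscd6 (adjusted p = 0.0106) and 0.60 in Δsbp1 (adjusted p = 0.00706), and 0.40 in wild type, which did not pass (adjusted p = 0.0958). NOT3 (YIL038C) had group means of 804 with azide and 953 untreated in Δscd6, 744 and 951 in Δsbp1, and 716 and 1093 in wild type. Its untreated groups were all above its azide groups, but with equal totals its azide group in Δscd6 was the higher, at 850.4 against 769.0 untreated. In the authors' deposited table it fell by 0.61 in wild type (adjusted p = 0.0174), and it gave -0.25 in Δscd6 (adjusted p = 0.388) and -0.35 in Δsbp1 (adjusted p = 0.169). Per kilobase, the level of NOT3 was 0.325 of that of NOT5 with azide and 0.582 untreated in Δscd6, 0.272 and 0.527 in Δsbp1, and 0.318 and 0.641 in wild type, a description for which no test was made.

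MOT2 (YER068W), the ubiquitin ligase gene, had group means of 749 with azide and 572 untreated in Δscd6, 709.5 and 478 in Δsbp1, and 752 and 567 in wild type. Each azide group was above every untreated group. It rose by 0.57 in Δsbp1 in the authors' deposited table (adjusted p = 0.0424), while 0.39 in Δscd6 (adjusted p = 0.198) and 0.41 in wild type (adjusted p = 0.180) did not pass. CDC36 (YDL165W), the NOT2 gene, gave positive values that did not pass in the authors' deposited table: 0.11 in Δscd6 (adjusted p = 0.694), 0.41 in Δsbp1 (adjusted p = 0.0780) and 0.25 in wild type (adjusted p = 0.331). CAF40 (YNL288W) gave -0.20 in Δscd6, -0.09 in Δsbp1 and 0.29 in wild type in the authors' deposited table, with adjusted p-values of 0.472, 0.744 and 0.266 in that order of strains.

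The nuclease genes of Ccr4-Not had lower group means with azide in every strain, and 1 of the 6 values passed. With equal totals CCR4 in wild type was instead higher with azide, at 1069 against 1034 untreated. CCR4 (YAL021C), the main catalytic subunit, had group means of 891 with azide and 1210.0 untreated in Δscd6, 565 and 1059 in Δsbp1, and 985 and 1058 in wild type. The azide-treated Δsbp1 group stood below the other 5. CCR4 fell to 53.4% of the untreated level in Δsbp1 in the authors' deposited table (log2 change -0.91, adjusted p = 0.00966), and gave -0.44 in Δscd6 (adjusted p = 0.253) and -0.10 in wild type (adjusted p = 0.819). CCR4 also had the widest implied error of the 10 genes, up to 0.32. POP2 (YNR052C), which joins Ccr4 to the scaffold, had group means of 803 with azide and 1127 untreated in Δscd6, 719 and 1075 in Δsbp1, and 844 and 1025 in wild type. All of its azide groups lay below all of its untreated groups, an order that equal totals broke, with azide-treated wild type at 916 and untreated Δscd6 at 909. No value of POP2 passed in the authors' deposited table: -0.49 in Δscd6 (adjusted p = 0.129), -0.58 in Δsbp1 (adjusted p = 0.0537) and -0.28 in wild type (adjusted p = 0.411).

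Of the Pan2-Pan3 complex, the nuclease gene fell in 2 strains while its partner did not pass in any. PAN2 (YGL094C) had group means of 688 with azide and 725 untreated in Δscd6, 579 and 1022 in Δsbp1, and 659 and 1107 in wild type. Its 3 azide groups lay close together, and its untreated level in Δscd6 stood nearer to them than to the other untreated groups. PAN2 fell to 56.7% of the untreated level in Δsbp1 (log2 change -0.82, adjusted p = 0.000912) and to 59.5% in wild type (-0.75, adjusted p = 0.00333) in the authors' deposited table, which gave -0.08 in Δscd6 (adjusted p = 0.820). PAN3 (YKL025C), the adaptor that binds Pab1, had group means of 629 with azide and 531 untreated in Δscd6, 612 and 608 in Δsbp1, and 572 and 749 in wild type. In the authors' deposited table it gave 0.25 in Δscd6 (adjusted p = 0.403), 0.01 in Δsbp1 (adjusted p = 0.976) and -0.39 in wild type (adjusted p = 0.157). Per kilobase, PAN2 stood at 0.666 of PAN3 with azide and 0.831 untreated in Δscd6, at 0.577 and 1.02 in Δsbp1, and at 0.702 and 0.900 in wild type.

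The summed group means of the 8 Ccr4-Not genes were 7860.4 with azide and 8291 untreated in Δscd6, 6933 and 7663 in Δsbp1, and 7682 and 8284 in wild type. Those of the Pan2-Pan3 genes were 1317 and 1256 in Δscd6, 1191 and 1630.2 in Δsbp1, and 1231 and 1856 in wild type, in the same order. The sum over all 10 genes thus gave log2 ratios of azide over untreated of -0.06 in Δscd6, -0.19 in Δsbp1 and -0.19 in wild type, but with all groups scaled to equal totals these became 0.33, 0.09 and -0.04. Such a scaling moves every gene of a comparison alike, by 0.39 in Δscd6, 0.28 in Δsbp1 and 0.15 in wild type, because the totals of the normalised counts differed between groups. On that scale CDC36 (0.50, adjusted p = 0.0331), MOT2 (0.78, adjusted p = 0.00491) and PAN3 (0.64, adjusted p = 0.0141) passed beside NOT5 in Δscd6, CDC36 passed in Δsbp1 (0.69, adjusted p = 0.00203) and NOT5 in wild type (0.55, adjusted p = 0.0176). CCR4 in Δsbp1 (-0.62, adjusted p = 0.0798) and NOT3 in wild type (-0.46, adjusted p = 0.0822) no longer passed. Shares of all genes passing on that scale are not given here, so these passes are not read as particular to the 10 genes. Of the 10 genes, 4 changed sign in Δscd6 (CDC39, NOT3, CAF40 and PAN2), 1 in Δsbp1 (CAF40) and 1 in wild type (CCR4).

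Gene length moved with these changes. CDC39 is 6327 bases long, PAN2 3348, CCR4 2514 and NOT3 2511 in the RefSeq R64 annotation, and these 4 genes, which made all the falls, are the members in the longest sixth of all genes by length (2283 bases or more, 956 genes). In that sixth the median log2 change over all genes was -0.16 in Δscd6, -0.51 in Δsbp1 and -0.46 in wild type, and 29.4%, 49.6% and 44.5% of its genes fell. NOT5, MOT2 and PAN3 lie in the fifth sixth, where the medians were 0.04 in Δscd6, -0.08 in Δsbp1 and -0.03 in wild type. Relative to the median of its own sixth, a step chosen after seeing the data, CDC39 was at -0.76 in Δsbp1 (adjusted p = 0.0102) and -0.84 in wild type (adjusted p = 0.00574). On that scale PAN2 was at -0.31 in Δsbp1 (adjusted p = 0.242) and -0.29 in wild type (adjusted p = 0.312), CCR4 at -0.40 in Δsbp1 (adjusted p = 0.287) and NOT3 at -0.15 in wild type (adjusted p = 0.618), and none of these 4 values passed. POP2, which is not in the longest sixth, did pass on that scale in Δsbp1 (-0.62, adjusted p = 0.0373). The longest sixth runs from 2283 to 14733 bases and 1 median stands for all of it. A part of length within that sixth was not tested, and CDC39 is far longer than the other members there. Shares of all genes passing on that scale are not given here.

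**Figure D3:**
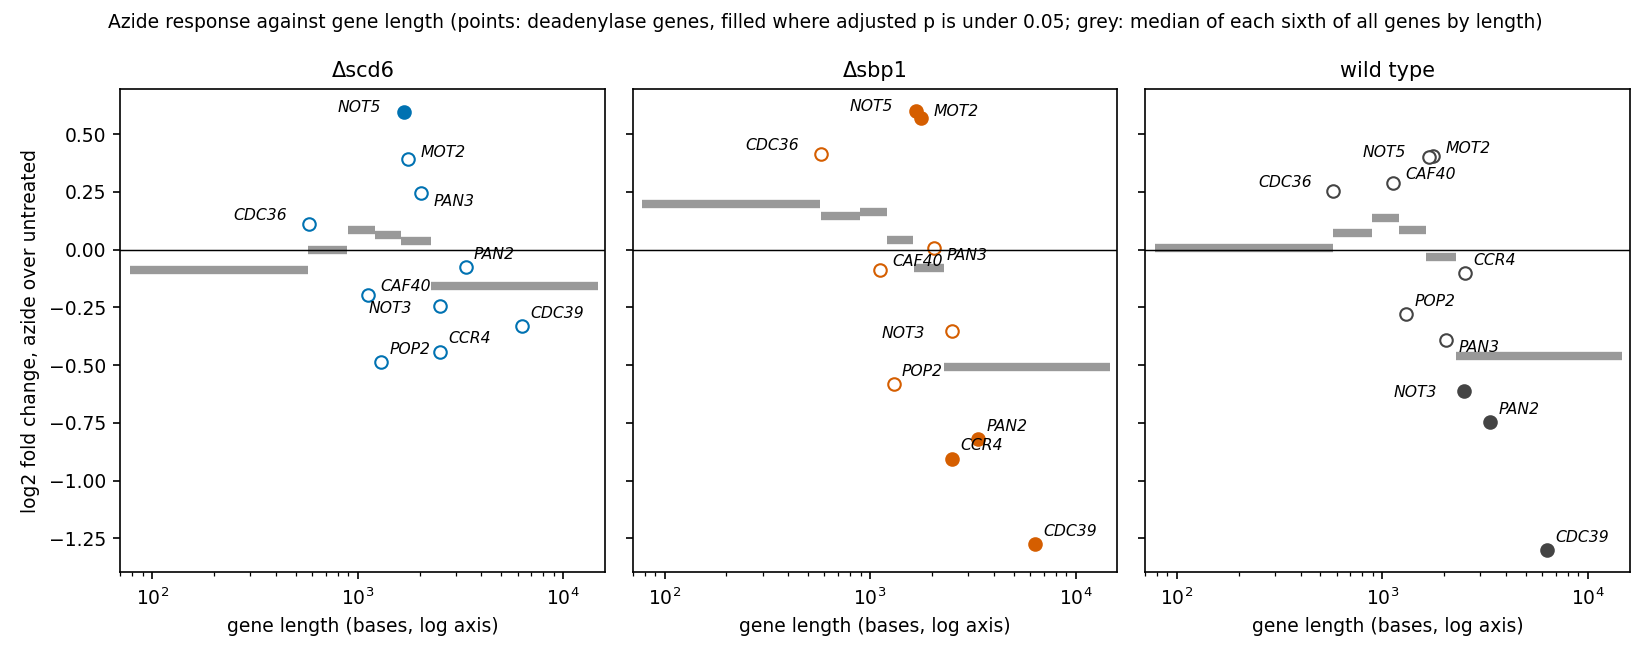
Log2 fold change of azide over untreated (vertical axis) against gene length in bases (log axis) in Δscd6, Δsbp1 and wild type; points are the 10 genes, filled where the adjusted p is under 0.05, and grey bars are the medians of sixths of all genes by length. The grey bar of the longest sixth is at -0.16, -0.51 and -0.46, and every filled point below 0 lies over that sixth.

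Deletion of SCD6 or SBP1 left no deadenylase gene past the test, in azide or untreated. By the authors' adjusted p, 0 of 10 passed in azide-treated Δscd6 cells against wild type, where 4.31% of all genes passed (2.03% higher and 2.28% lower). In untreated Δscd6 cells 0 of 10 passed, against 2.52% of all genes (1.45% higher and 1.07% lower). In azide-treated Δsbp1 cells 0 of 10 passed, against 21.2% of all genes (9.29% higher and 11.9% lower). In untreated Δsbp1 cells 0 of 10 passed, against 1.98% of all genes (1.54% higher and 0.441% lower). At an unadjusted p under 0.05 the authors' test gave 0 genes for Δscd6 in azide, 2 for Δscd6 untreated, 2 for Δsbp1 in azide and 0 for Δsbp1 untreated. The percentages above do not apply to that threshold. The value nearest to the threshold was CCR4 in azide-treated Δsbp1 cells, at 57.4% of the azide-treated wild type level in the authors' deposited table (log2 change -0.80, adjusted p = 0.0514), with a 95% interval of -1.42 to -0.18. With the p-values adjusted over the genes with a mean normalised count of at least 100 it passed (adjusted p = 0.0489). This CCR4 value did not pass with equal totals (-0.67, adjusted p = 0.101) or recentred on the median of all genes (-0.79, adjusted p = 0.0564). Nor did it pass recentred within sixths of gene length, a step chosen after seeing the data (-0.615, adjusted p = 0.156). CAF40 was the other gene there with an unadjusted p under 0.05, at -0.43 in the authors' deposited table (adjusted p = 0.123).

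In untreated Δscd6 cells the genes under an unadjusted p of 0.05 were those of the Pan2-Pan3 complex. PAN2 was at 65.5% of the untreated wild type level (log2 change -0.61, adjusted p = 0.110) and PAN3 at 70.9% (-0.50, adjusted p = 0.207) in the authors' deposited table. CDC39 was at 70.9% in untreated Δscd6 (-0.50, adjusted p = 0.285) and at 70.7% in untreated Δsbp1 cells (-0.50, adjusted p = 0.480) in the authors' deposited table. In azide CDC39 was above wild type in Δscd6 (0.48, adjusted p = 0.393) and below it in Δsbp1 (-0.47, adjusted p = 0.202) in the authors' deposited table, without passing in either. With totals made equal, PAN2 (-0.89, adjusted p = 0.00314), PAN3 (-0.77, adjusted p = 0.00978) and CDC39 (-0.77, adjusted p = 0.0246) passed in untreated Δscd6 cells. That scale lowers every gene of this comparison by 0.28, and the share of all genes passing on it is not given here. The remaining values lay between -0.30 and 0.31 in the authors' deposited table over the 4 comparisons, and their 95% intervals, which reached as low as -0.76 and as high as 0.81, do not show that the strains had equal levels.

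**Figure D4:**
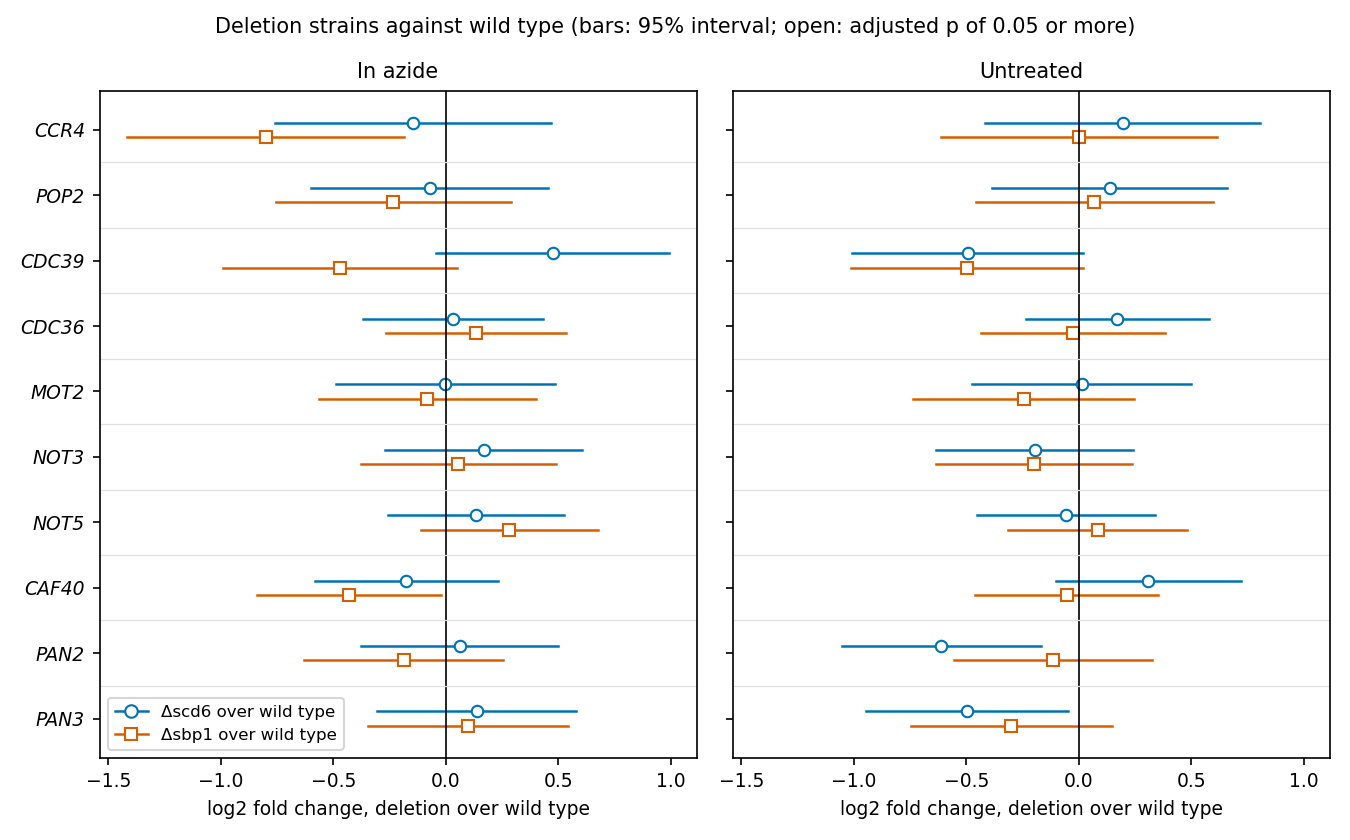
Log2 fold change of each deletion strain over wild type (horizontal axis) in azide and untreated, with 95% intervals from the implied standard error; all symbols are open because no adjusted p is under 0.05. CCR4 in azide-treated Δsbp1 cells (-0.80) and PAN2 in untreated Δscd6 cells (-0.61) lie farthest from 0.

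Whether a deletion altered the azide response was tested on the difference of log2 responses, with p-values adjusted over all genes. No deadenylase gene passed: 0 of 10 for Δscd6 minus wild type (4.12% of all genes passed), 0 of 10 for Δsbp1 minus wild type (2.23%) and 0 of 9 for Δsbp1 minus Δscd6 (5.57%). PAN3 (-0.24 for Δsbp1 minus Δscd6) was not tested there, because its Δsbp1 response was under 0.02 in size and gave no standard error. At an unadjusted p under 0.05 this normal test gave 3, 0 and 2 genes in these comparisons, a threshold to which those percentages do not apply. For CDC39, Δscd6 minus wild type gave 0.97 on the log2 scale, with a 95% interval of 0.24 to 1.71 and an adjusted p of 0.114. PAN2 gave a difference of 0.67 (95% interval 0.05 to 1.30, adjusted p = 0.213) and PAN3 of 0.64 (0.00 to 1.27, adjusted p = 0.245) for Δscd6 minus wild type. For Δsbp1 minus Δscd6, CDC39 gave -0.94 (adjusted p = 0.129) and PAN2 -0.74 (adjusted p = 0.176). CCR4 had the largest difference for Δsbp1 minus wild type, -0.80 with a 95% interval of -1.67 to 0.07 (adjusted p = 0.375). For NOT5 the differences from wild type were 0.19 in Δscd6 (95% interval -0.37 to 0.75) and 0.20 in Δsbp1 (-0.36 to 0.76), so its passing in the deletion strains and not in wild type does not show a difference between strains. The comparisons share groups: the azide responses of wild type enter both differences from it. The differences were not tested with equal totals, which move the azide responses by 0.39 in Δscd6 and 0.15 in wild type. Recentred within sixths of gene length, a step chosen after seeing the data, 0 genes passed for Δscd6 minus wild type. The smallest adjusted p was then 0.341 in place of 0.114.

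**Figure D5:**
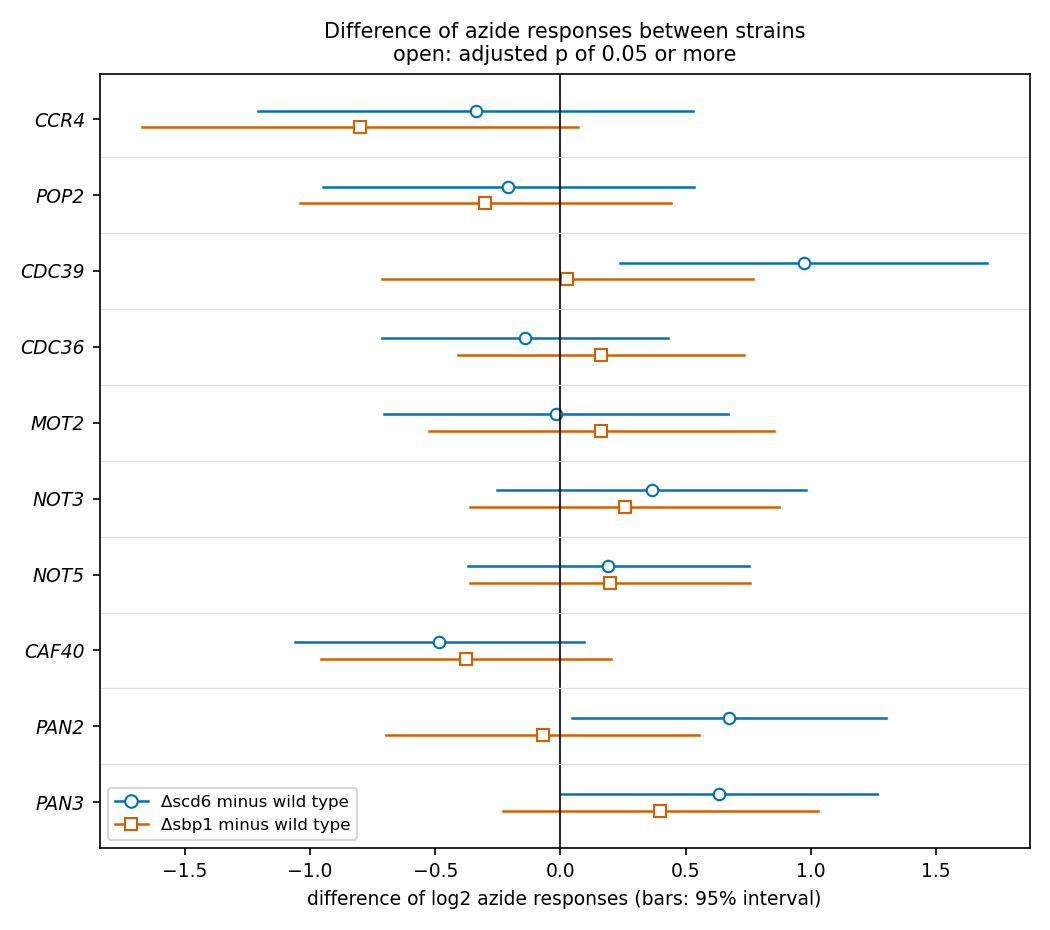
Difference of the log2 azide responses (horizontal axis), Δscd6 minus wild type and Δsbp1 minus wild type, for the 10 genes with 95% intervals; all symbols are open because no adjusted p is under 0.05. The intervals of CDC39, PAN2 and PAN3 for Δscd6 minus wild type lie above 0, at 0.97, 0.67 and 0.64.

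Genes that act with the deadenylases were described from 5 lists, beside shares of all genes of 22.1% that rose and 20.4% that fell in Δscd6, 27.5% and 27.4% in Δsbp1, and 21.3% and 20.6% in wild type. Among the 9 genes of proteins associated with Ccr4-Not, 1 rose and 3 fell in Δscd6, 1 rose and 1 fell in Δsbp1, and 0 rose and 1 fell in wild type, where the authors' test gave 1 rise and 1 fall at an unadjusted p under 0.05. CAF120, a Ccr4-associated factor of 3183 bases, fell in all 3 strains in the authors' deposited table, at -1.44 in Δscd6, -2.16 in Δsbp1 and -0.96 in wild type. DBF2, a kinase of mitotic exit, rose by 0.97 in Δscd6 and 0.47 in Δsbp1 and gave 0.42 in wild type (adjusted p = 0.0809) in the authors' deposited table. DHH1, a helicase that activates decapping, gave -0.01 in Δscd6, -0.35 in Δsbp1 and -0.25 in wild type in the authors' deposited table and did not pass.

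Of the 7 mRNA-binding recruiters, 1 rose and 3 fell in Δscd6, 2 rose and 3 fell in Δsbp1, and 2 rose and 3 fell in wild type, where 20.4% to 27.5% of all genes passed in each direction. VTS1, a stem-loop binding protein that brings Ccr4-Not to its targets, fell in all 3 strains, at -2.16 in Δscd6, -2.27 in Δsbp1 and -1.70 in wild type in the authors' deposited table. PUF4, a Pumilio-family protein, also fell in each, at -1.43 in Δscd6, -1.72 in Δsbp1 and -1.34 in wild type in the authors' deposited table. CTH1, a zinc finger protein of AU-rich elements, rose by 1.45 in Δscd6, 1.51 in Δsbp1 and 1.07 in wild type in the authors' deposited table. PHO92, which binds methylated mRNA and had a mean normalised count of only 8.03, rose by 1.94 in Δsbp1 and 2.39 in wild type and gave 1.13 in Δscd6 (adjusted p = 0.327) in the authors' deposited table. In azide-treated Δsbp1 cells 0 of the 7 were above wild type and 3 below it, beside 9.29% and 11.9% of all genes (0 above and 4 below at an unadjusted p under 0.05 by the authors' test), with VTS1 at -1.09 in the authors' deposited table (adjusted p = 0.00992). Passing values in that comparison were not limited to the recruiters. The authors' deposited table gave -1.50 for CAF120 (adjusted p = 0.00163). It gave 0.52 for NGL2, a Ccr4-like nuclease gene (adjusted p = 0.0493), and 1.11 for the decapping list gene DCS1 (adjusted p = 1.40e-05). No other gene of the lists passed there outside the recruiters.

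Of the 5 genes of poly(A) tail synthesis and binding, 1 rose and 0 fell in Δscd6 (1 and 0 at an unadjusted p under 0.05 by the authors' test), 2 rose and 1 fell in Δsbp1, and 1 rose and 1 fell in wild type, where 20.4% to 27.5% of all genes passed in each direction. NAB2, a nuclear poly(A)-binding protein that limits tail length, rose by 0.81 in Δscd6, 1.17 in Δsbp1 and 1.51 in wild type in the authors' deposited table. PAB1, the poly(A)-binding protein that recruits Pan2-Pan3, fell in Δsbp1 (-0.85) and wild type (-0.84) and gave -0.17 in Δscd6 (adjusted p = 0.627) in the authors' deposited table. Of the 3 Ccr4-like nuclease genes, 2 rose in Δscd6, 2 in Δsbp1 and 1 in wild type, and none fell by the authors' test, at the adjusted threshold or at an unadjusted p under 0.05 (0 genes in each strain). Among all genes 22.1%, 27.5% and 21.3% rose and 20.4%, 27.4% and 20.6% fell in these strains. NGL2, a nuclease of ribosomal RNA processing, rose by 1.24 in Δscd6, 1.21 in Δsbp1 and 0.90 in wild type in the authors' deposited table. NGL3, which had a mean normalised count of only 56.1, rose by 1.47 in Δscd6 in the authors' deposited table. NGL3 gave 0.35 in Δsbp1 (adjusted p = 0.493) and 0.40 in wild type (adjusted p = 0.435) there.

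The 15 genes of decapping and 5′ to 3′ decay, the steps after deadenylation, gave 4 rises and 4 falls in Δscd6, 6 and 3 in Δsbp1, and 4 and 3 in wild type, beside the 20.4% to 27.5% of all genes that passed in each direction. XRN1, the exonuclease that degrades decapped mRNA and a gene of 4587 bases, fell in all 3 strains, at -0.75 in Δscd6, -1.63 in Δsbp1 and -1.49 in wild type in the authors' deposited table. LSM3, a subunit of the Lsm ring, had the largest fall in Δscd6, by 0.88 in the authors' deposited table (adjusted p = 0.0348). The scavenger enzyme gene DCS1 rose by 1.70 in Δscd6, 1.86 in Δsbp1 and 1.33 in wild type, and the decapping enhancer gene EDC2 by 1.61 in Δscd6, 1.55 in Δsbp1 and 1.91 in wild type, in the authors' deposited table. DCP2, the decapping enzyme gene and 2913 bases long, gave 0.40 in Δscd6 (adjusted p = 0.111), 0.35 in Δsbp1 (adjusted p = 0.139) and 0.07 in wild type (adjusted p = 0.830) in the authors' deposited table.

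The genes whose 7 log2 fold changes lay nearest to those of the nuclease genes were found among 5700 genes with a mean normalised count of at least 100. For CCR4 they were YDL221W, which the files leave unnamed, IMP4, a ribosome assembly gene, and CDC13, a telomere-binding protein gene, at root mean square distances of 0.077, 0.082 and 0.093. CDC13 (YDL220C) and YDL221W carry consecutive identifiers, and whether they share reads was not tested, so they may not be separate likenesses. For PAN2 they were TFC4, a subunit of the RNA polymerase III factor TFIIIC, TAO3, of the RAM signalling network, and MIP1, the mitochondrial DNA polymerase, at 0.074, 0.083 and 0.085. As the 7 fold changes come from 6 groups that share libraries, these distances are a description.

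Neighbouring genes in the RefSeq annotation of assembly R64 were read beside the members, since the strand setting of the counting was not given, and no annotated gene overlapped a member. Both neighbours of CDC39 were lower with azide in the authors' deposited table: MSH3 at -0.64 in Δscd6, -0.92 in Δsbp1 and -1.18 in wild type, and CDC50 at -0.37, -0.83 and -0.99. So were those of POP2, with NOG2 at -1.40, -2.83 and -2.08 and BRE5 at -0.55, -1.09 and -0.99 in the same strains, and those of NOT3, with TED1 at -0.55, -0.64 and -0.69 and PRM2 at -0.54, -0.96 and -0.39, in the authors' deposited table. Of these values, CDC50 (adjusted p = 0.209), BRE5 (0.06975) and PRM2 (0.108) in Δscd6 and PRM2 in wild type (0.271) did not pass. Beside CCR4, FUN26 was at -1.14, -1.41 and -0.08 and ATS1 at -0.79, -0.43 and 0.45 in the authors' deposited table. The neighbours of PAN2 were not lower in this way: VPS45 was at 0.98, 0.97 and 0.29 and SPC105 at 0.99, -0.02 and 0.18 in the authors' deposited table. Beside MOT2, RGI1 was at 3.93, 4.29 and 3.37 and ARG56 at -0.05, -0.71 and -0.52 in the authors' deposited table. Beside PAN3, GPX1 was at 3.04, 3.13 and 1.69 but URA6 at -0.76, -0.90 and -0.54. LTP1 beside NOT5 was at -0.01, -0.00 and -0.38, and SEC21 beside CAF40 at -0.19, -0.64 and -0.74. Beside CDC36, FAP7 was at -0.66, -0.85 and -0.35 and CDC9 at -0.112, -0.955 and -1.195. The part of neighbouring genes in the members' values was not tested.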

How the data were processed

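Hot phenol was used to extract total RNA, and libraries were built using an NEBNext kit, per the labels' protocols. The submitters' processing notes list edgeR, featureCounts, Picard and STAR 2. Their roles, the genome build and the strand setting were not given in the sources used here. In all, the authors deposited 7 comparison tables. Per the file headers the columns are the mean normalised count (a signal, the same in every table), linear fold (a ratio), log2 fold change, p-value and its adjusted form. The adjusted p-value equalled a Benjamini-Hochberg adjustment over 6352 genes to within 4.6e-08. Depth is unknown, and no count model was run.

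A standard error was taken from each deposited log2 fold change as its size divided by the two-sided normal deviate of the p-value. Where the change was under 0.02 in size (4 of 70 values), the interval used the gene's median over the other tables. Group means were solved so that their average equals the mean count and their ratios the fold changes. Differences of responses took the larger of 2 summed variances, that of the azide responses and that of the comparisons with wild type (for Δsbp1 minus Δscd6, the azide responses alone), a normal two-sided test and adjustment over 6331, 6329 and 6142 genes. Errors between neighbouring levels used the implied error of a group mean.

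Gene length came from RefSeq R64 for 5764 of 6352 IDs. Names followed a rule: all 10 genes, SCD6 and SBP1, and the 3 likest genes for CCR4 and PAN2. The rule also took from each list the largest rise and fall with azide per strain. Values of list genes against wild type are given outside that rule. DHH1, PUF4 and DCP2 were chosen after their values were seen. Every neighbouring gene with values is printed, in an order set after those values were seen. Members and lists were chosen with earlier results of these data known. Promoter motifs were planned and not analysed here. Software was Python 3.11.15 with scipy 1.17.1, numpy 2.4.6, pandas 2.3.3 and, for plots, matplotlib 3.10.9.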

Additional observations from a re-analysis of the deposited data

How the results depend on the processing

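No paired analysis was possible because values per library were not used; the replicate block and leaving out each replicate in turn were planned and not run. Recentring on the median of all genes, requiring a log2 change of at least 0.5 and the other variances of a difference changed no count. At an adjusted p under 0.01, the rises became 0 in Δscd6 and 1 in Δsbp1, and the falls in wild type 2. With equal totals, the rises became 4 in Δscd6, 3 in Δsbp1 and 1 in wild type, the falls with azide 2 in Δsbp1 and 2 in wild type, and the falls in untreated Δscd6 against wild type became 3. Shares of all genes passing with equal totals are not given here, and the differences of responses were not tested on that scale. The summed level of the 10 genes with azide was then 0.33 in place of -0.06 in Δscd6 and 0.0865 in place of -0.19 in Δsbp1. Adjusted over genes with a mean count of at least 100, 1 gene, CCR4, fell in azide-treated Δsbp1 against wild type. Recentred within sixths of gene length, chosen after seeing the data, the falls in wild type became 1 and those in Δsbp1 became 2, with POP2 added (-0.62, adjusted p = 0.0373) and CCR4 and PAN2 lost. The cause was not tested.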
